A study of Homo sapiens with 22 samples.

Results

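The regions described here are MTBP binding peaks that the authors classed as enhancer or super-enhancer and that lie in an initiation zone, a stretch of DNA where replication began early in S phase. They were selected on 2 criteria, the authors' class and an overlap of at least 1 bp with a zone. The criteria took 1816 of the 5257 enhancer-class peaks on chromosomes 1 to 22 and X, where the list holds 29848 peaks in all. The class and the overlap are therefore not findings, and neither is a distance of over 2 kb from a start site, since the enhancer class begins there. MTBP was mapped in DLD-1 cells, an established line from a human colorectal adenocarcinoma, by CUT&RUN, in which an antibody guides a nuclease that releases the DNA around its target. A FLAG antibody was used in 3 groups of 3 libraries each: an untagged control (MTBP-mAID/MTBP-mAID), the WT line (MTBP-mAID/MTBP-WT-FLAG), whose tagged copy is full length, and the deltaC line (MTBP-mAID/MTBP-deltaC-FLAG), whose tagged copy is shortened at its C terminus. The WT line also gave 2 libraries with control IgG and 2 with an antibody to H3K4me2. All 3 lines carry at least 1 degron-tagged (mAID) copy of MTBP, so neither FLAG line has an untouched pair of alleles, and whether the degron was triggered is not given in the sources used here. Zones came from EdU-seq, which sequences DNA made in the presence of the thymidine analogue EdU (10 µM for 3 hr). WT cells were assayed arrested in G1 and after release, and deltaC cells after release (3 libraries each), with hydroxyurea and aphidicolin holding forks near their start. Which of these libraries the zones were called from is not given in the sources used here, so a zone may stand for the WT line, the deltaC line or both.

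MTBP acts as a pair with Treslin, and together they let CDC45 and GINS join the loaded MCM helicase, the step that turns a licensed origin into a pair of forks. The C-terminal part of MTBP, which deltaC lacks, binds DNA. Enhancers are DNA elements away from promoters that raise transcription of their target genes, and H3K4me2 marks the nucleosomes of active enhancers and promoters. Human replication starts at many places spread over an initiation zone rather than at a fixed point.

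Few of these peaks held an annotated start site, so sequence could be shown for a small part of them. The deposited lists hold no sequence, and RefSeq promoter windows of GRCh38.p14, the assembly of hg38, were used. Of the 1816 peaks, 48 contained a whole window of 250 bases upstream of a RefSeq start, 51 windows in all, and 39 of the 51 belonged to genes named LOC or LINC, mostly uncharacterised transcripts. The 5 windows below are the 3 in the highest-scoring such peaks and the 2 in the peaks with the lowest and the highest deltaC over WT signal among the rest. Each ends at the base before the start site, is written 5′ to 3′ on the gene's strand, and has motif matches in capitals. The motifs were searched on both strands. AP-1, the FOS and JUN family, was searched as TGANTCA. TCF/LEF, which act in Wnt signalling, were searched as CTTTGAT. The intestinal factors HNF4 and CDX were searched as CAAAGTCCA and, for CDX, as TTTATNG. KLF/SP factors were searched as CCNCNCCC, a C-rich box. GATA factors were searched as AGATAA. TEAD, the partner of YAP, was searched as GGAATG. FOXA, a pioneer factor family, was searched as TGTTTAC. The cyclic AMP response element (CRE) was searched as TGACGTCA, and CTCF as a pattern of 12 letters. No motif in this list contains another, but matches of a motif can overlap each other.
LOC102723480, chr1:93692901-93693150, + strand: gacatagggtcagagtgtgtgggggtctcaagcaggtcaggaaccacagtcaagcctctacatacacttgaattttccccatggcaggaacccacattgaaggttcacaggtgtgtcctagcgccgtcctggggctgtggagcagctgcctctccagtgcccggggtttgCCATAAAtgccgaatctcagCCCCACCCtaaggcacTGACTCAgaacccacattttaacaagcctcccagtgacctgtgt
LOC107986854, chr7:140231236-140231485, + strand: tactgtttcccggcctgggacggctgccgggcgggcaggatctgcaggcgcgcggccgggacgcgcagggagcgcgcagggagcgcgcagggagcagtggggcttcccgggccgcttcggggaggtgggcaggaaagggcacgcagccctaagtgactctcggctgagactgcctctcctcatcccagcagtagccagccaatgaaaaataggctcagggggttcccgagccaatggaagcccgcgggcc
LOC105378494, chr10:114320756-114321005, + strand: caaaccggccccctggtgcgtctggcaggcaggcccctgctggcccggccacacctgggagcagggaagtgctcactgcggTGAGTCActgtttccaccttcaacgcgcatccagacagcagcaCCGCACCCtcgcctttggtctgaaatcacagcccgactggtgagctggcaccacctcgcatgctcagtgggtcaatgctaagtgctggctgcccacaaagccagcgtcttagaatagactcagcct
LOC124905136, chr22:46035860-46036109, + strand: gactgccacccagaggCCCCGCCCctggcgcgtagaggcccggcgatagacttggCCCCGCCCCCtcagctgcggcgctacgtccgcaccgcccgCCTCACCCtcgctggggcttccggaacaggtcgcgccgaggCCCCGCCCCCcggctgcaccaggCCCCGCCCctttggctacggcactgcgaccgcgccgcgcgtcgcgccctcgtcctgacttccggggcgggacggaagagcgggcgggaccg
LOC124909385, chr3:57975033-57975282, - strand: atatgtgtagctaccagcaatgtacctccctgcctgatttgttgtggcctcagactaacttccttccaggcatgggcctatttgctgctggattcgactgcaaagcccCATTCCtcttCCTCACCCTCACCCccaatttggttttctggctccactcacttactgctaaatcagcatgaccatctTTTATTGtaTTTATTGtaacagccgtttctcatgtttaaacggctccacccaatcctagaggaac

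The windows at either end of the signal range differed in base composition. The LOC124905136 window, in the peak whose deltaC signal was lowest relative to WT, was 77.6% G and C, held 36 CpG pairs and had 7 KLF/SP matches, of which 2 pairs overlapped. The authors annotated that peak to a CpG island. Its signal was 226 in WT and 32.8 in deltaC, a log2 ratio of deltaC to WT of -2.75 (1 added to both signals, here and throughout). The LOC124909385 window, in the peak with the highest ratio of these, was 46.8% G and C with 3 CpG pairs, and had 2 CDX matches, 2 overlapping KLF/SP matches and a TEAD match. Its signal was 459 in WT and 449 in deltaC, a log2 ratio of -0.03. The LOC102723480 window, in an intron of BCAR3, an adaptor protein gene, had an AP-1 match from base -44 to base -38, counted back from the start site, beside a KLF/SP and a CDX match. That peak scored 1288 and had a log2 ratio of -1.33. The LOC107986854 window, in a CpG island peak of score 844, had 22 CpG pairs and none of these letters. Over the 51 windows, 78.4% held a KLF/SP match, against 53.4% of all 34789 RefSeq windows of that length, 53.7% of the 95 windows in enhancer peaks outside zones and 76.6% of the 2069 in promoter peaks in zones. AP-1 letters were in 11.8% of the 51, in 6.55% of all windows and in 23.2% of the 95 outside zones. The remaining shares in the 51 windows were 21.6% for TEAD, 15.7% for CDX, 7.84% for GATA, 3.92% for CTCF, 1.96% for FOXA and 0% for TCF/LEF, HNF4 and CRE. In all windows they were 11.9%, 8.95%, 9.2%, 0.247%, 2.98%, 2.28%, 0.328% and 1.64%. Median G and C content was 62.4% in the 51 windows, 54.8% in the 95 and 58% in all windows, and shares of such small sets were not tested.

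The authors' peak score was higher at these enhancers than over all peaks, while the full-length signal per base was about level. The score's header names no line, and whether it rests on the line in a peak's name is not given. That line was WT for 99.2% of these peaks, so the score may mostly stand for full-length MTBP. The score had a median of 233 (quartiles 150 and 372, range 47 to 2210), against 222 at enhancer peaks outside zones and 190 over all peaks. The peaks were 1062 bp wide at the median, against 1005 bp outside zones and 938 bp over all peaks. The authors' signal for each line turned out to scale with peak width: 99.8% of WT values and 91% of deltaC values, divided by the width in bases, gave numbers of at most 6 decimals (to within 0.001 of a unit in the last of them). Signal was therefore also compared per base. Per base, the WT signal had a median of 0.394 (quartiles 0.309 and 0.515) in zones, 0.41 in enhancer peaks outside zones and 0.395 over all peaks. The deltaC signal per base was 0.187 (0.132 and 0.254) in zones, against 0.224 outside and 0.213 over all peaks. Set against enhancer peaks outside zones, the medians in zones were lower by a small margin in WT (a change of -3.95%) and by more in deltaC (-16.7%). No list gives a value per library, so there was no replicate error to test these differences against, and peaks were not used as replicates.

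On the authors' scale, truncated MTBP signal was below full-length signal at nearly all of these enhancers, as at most peaks of the list. The log2 ratio of deltaC to WT signal, called the ratio below, had a median of -1.11 (quartiles -1.50 and -0.80). In enhancer peaks outside zones the median was -0.91 (-1.23 and -0.60), and over all peaks it was -0.93. The ratio was below 0 at 1789 of the 1816 peaks (98.5%), at 96.8% of enhancer peaks outside zones and at 95.5% of all peaks. Of the 1816, 1801 (99.2%) bore WT in the authors' peak name. A peak's name and its signal in that line come from the same libraries, so a ratio mostly below 0 is a description. A deltaC signal at least 2-fold lower was found at 1059 peaks, 58.3% (exact binomial interval 56 to 60.6%, which covers counting error only), against 41.3% (39.6 to 42.9%) of enhancer peaks outside zones and 44.9% of all peaks. A deltaC signal at least 2-fold higher was found at 2 peaks (0.11%), against 0.419% of all peaks, and both bore deltaC in the authors' peak name. How the 2 lines were scaled to each other is not given in the sources used here, so the ratio's level depends on that scaling. With the ratio centred on the median of all peaks, the median in zones was -0.18 and 10.3% of the peaks were at least 2-fold lower. If each line was scaled by a single factor, a difference of median ratios between groups hardly depends on it. Whether this was so is not given in the sources used here. Shares past a 2-fold limit, and their differences, depend on the scaling in either case.

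**Figure D1:**
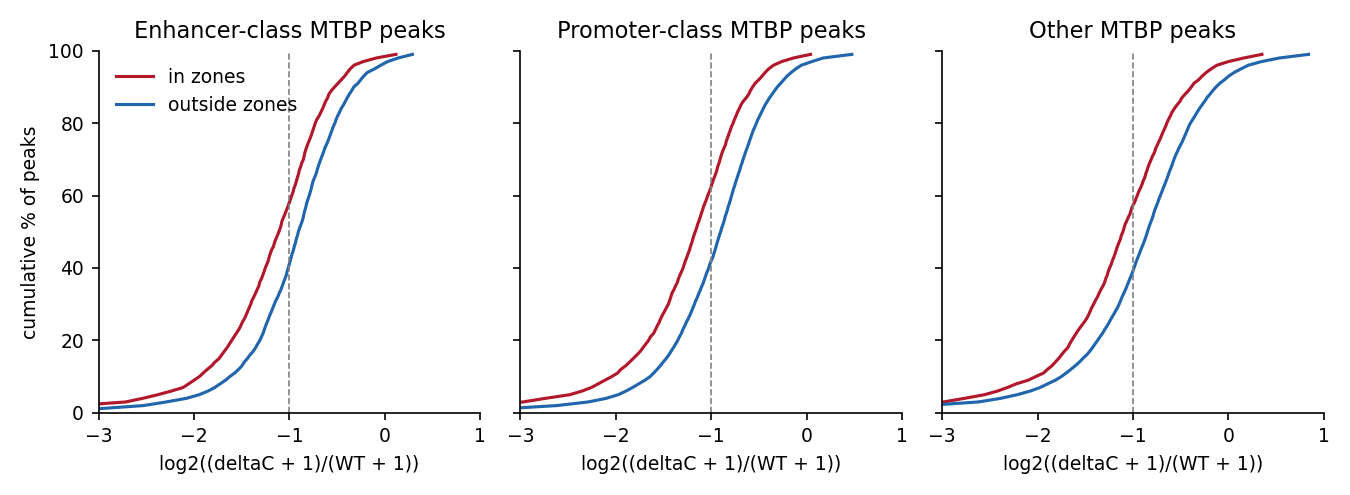
Cumulative share of MTBP peaks (y axis, %) against the log2 ratio of deltaC to WT signal (x axis, 1 added to both signals), for enhancer-class, promoter-class and other peaks, in zones (red) and outside (blue); the dashed line marks a 2-fold lower deltaC signal. At the median the curve for zones lies to the left in each class, at -1.11 against -0.91 for enhancer, -1.17 against -0.90 for promoter and -1.10 against -0.85 for other peaks.

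The ratio was also lower in zones among peaks of the other classes. Promoter-class peaks had a median of -1.17 in zones and -0.90 outside, a difference of -0.27, and other peaks -1.10 and -0.85, a difference of -0.26. For enhancers the difference was -0.20. In promoter peaks the WT signal per base changed by -2.81% and the deltaC signal by -19.3% from outside to inside zones. In other peaks the changes were -1.68% and -15.3%.

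Among enhancer peaks the direction was the same in most divisions of the list that were tried. By WT signal per base, the median ratio was lower in zones in 10 of 10 deciles, with differences from -0.09 in the lowest decile to -0.25. It was lower in 4 of 4 quartiles of distance to a start site, from -0.18 to -0.22, in 4 of 4 quartiles of H3K4me2 fold, from -0.15 to -0.25, and in 4 of 4 quartiles of width, from -0.17 to -0.24. Peaks centred in a protein-coding gene had medians of -1.16 in zones and -0.93 outside, and peaks between such genes -1.09 and -0.86, a difference of -0.23 in both. By chromosome, the median was lower in zones on 22 of 23. The exception was X, where 7 peaks in zones had a median of -0.65 and those outside -1.06. Chromosome 17 had the lowest medians on either side, -1.41 for its 208 peaks in zones and -1.18 outside.

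**Figure D2:**
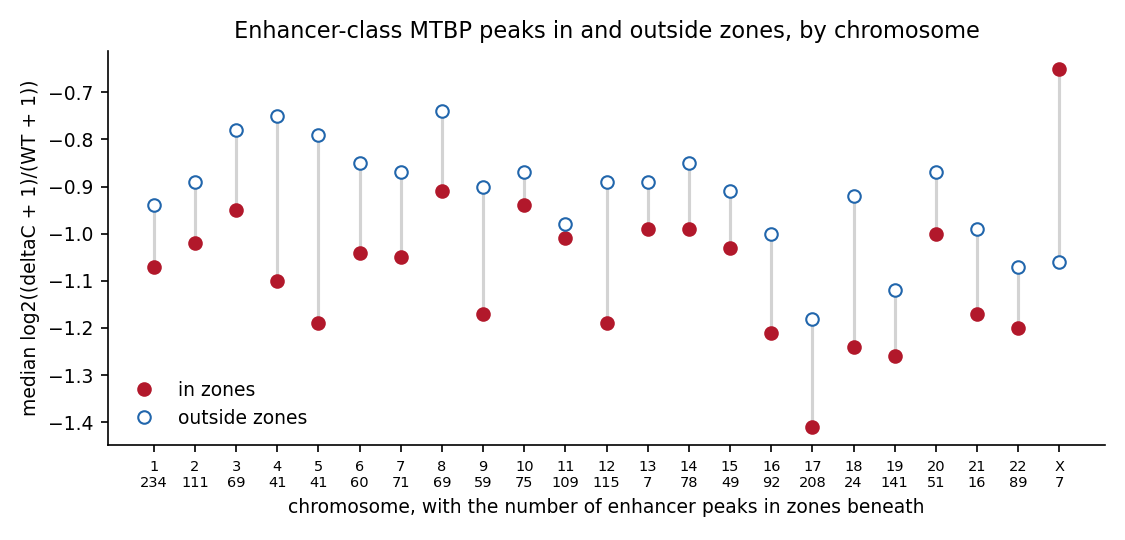
Median log2 ratio of deltaC to WT signal (y axis, 1 added to both) of enhancer-class MTBP peaks in zones (filled red) and outside (open blue), by chromosome (x axis, with the number of peaks in zones). The filled point is the lower on 22 of 23 chromosomes and the higher on X, which has 7 peaks in zones.

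The ratio changed in steps with distance from a zone. Enhancer peaks in a zone had a median of -1.11, the 330 within 10 kb of one -1.04, the 662 at 10 to 50 kb -1.01, the 837 at 50 to 200 kb -0.92, the 895 at 200 to 1000 kb -0.82 and the 717 farther away -0.80. The share at least 2-fold lower took the same order, from 58.3% to 54.8%, 51.1%, 43.5%, 34.1% and 32.4%. The quartiles of neighbouring steps overlapped widely. Median ratios of promoter-class and other peaks took the same order, from -1.17 and -1.10 in a zone to -0.81 and -0.79 beyond 1000 kb. For enhancer peaks, the median MTBP score was 233 in zones and 211 to 222 in the other steps. Their median H3K4me2 fold went from 23.8 in zones to 25.9 beyond 1000 kb. At the boundary itself, the 5 peaks with the smallest overlap (3 to 89 bp) had ratios of -0.90, -1.29, -1.34, -2.04 and -0.24. The 5 nearest enhancer peaks outside lay 18 to 113 bp from a zone and had ratios of -1.55, -0.96, -0.60, -0.85 and -0.91. Of the 1816 peaks, 1763 lay wholly in a zone, with a median of -1.12, and 53 partly, with a median of -0.91.

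**Figure D3:**
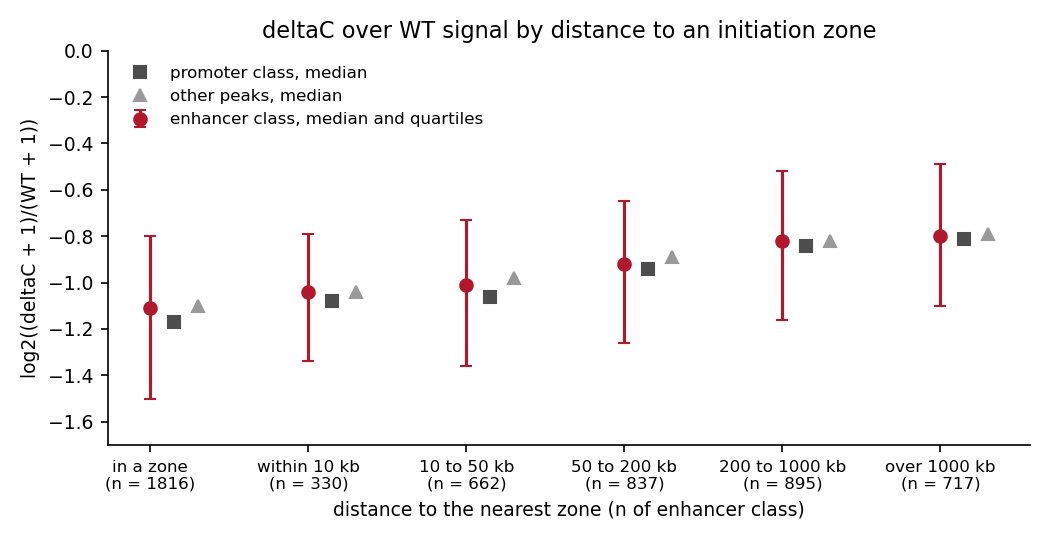
Median log2 ratio of deltaC to WT signal (y axis, 1 added to both) by distance to the nearest initiation zone (x axis, with the number of enhancer-class peaks). Red points with bars are enhancer-class medians with quartiles, and grey symbols the promoter-class and other medians. The enhancer median goes from -1.11 in a zone to -0.80 beyond 1000 kb, the promoter-class median from -1.17 to -0.81 and the other median from -1.10 to -0.79.

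These enhancers were concentrated in part of the zones. Of the 2473 zones, 861 (34.8%) held at least 1, and 474 held exactly 1. The 225 zones with 3 or more held 1018 of the peaks (56.1%), and the 83 with 5 or more held 549. Zones with an enhancer peak were wider than those without, with medians of 71.7 and 38 kb, and had a higher average EdU score as given by the authors, 1221 against 430. The zones without one include 450 with no MTBP peak at all (medians 21.2 kb and 193). Zones with promoter but no enhancer peaks had medians of 48.2 kb and 648. Those with enhancer but no promoter peaks had 54.8 kb and 742, a smaller contrast. A wide zone has more room for a peak, so the share of zones was also read as density. In quintiles of zone width, the share of zones with an enhancer peak went from 10.9% in the narrowest to 15.6%, 31.7%, 45.1% and 70.7%, and density from 8.96 to 6.85, 10.1, 12.2 and 15.8 peaks per Mb of zone. In quintiles of zone score the share went from 10.7% to 19.2%, 28.7%, 45.7% and 69.7%, and density from 7.79 to 7.34, 8.59, 11.6 and 17.8 peaks per Mb. Enhancer peaks made up 17.7% of all MTBP peaks in zones of the lowest score quintile and 32.5% in the highest.

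The deltaC over WT ratio of the enhancers was lower in the higher-scoring and wider zones. By zone score quintile the medians were -0.86 (64 peaks), -0.96 (128), -1.06 (232), -1.01 (408) and -1.21 (984). By zone width they went from -0.88 in the narrowest to -0.95, -1.05, -1.10 and -1.19 in the widest. Zones of higher score also tended to be the wider ones by kind of zone, and the parts of score and width were not separated. The median MTBP score of the enhancers was 216, 228, 222, 228 and 244 across the score quintiles.

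**Figure D4:**
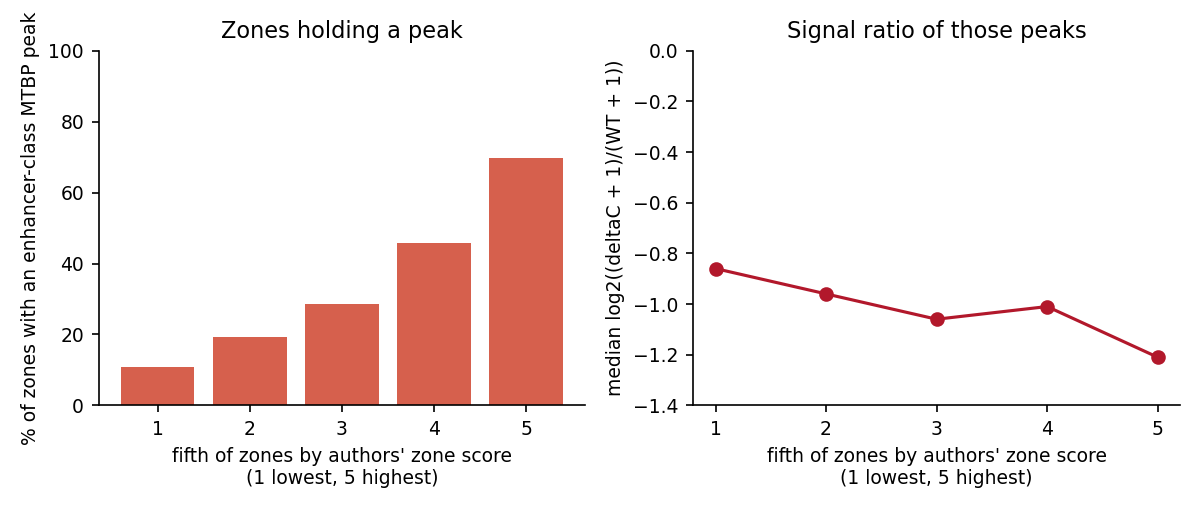
Left, share of initiation zones with at least 1 enhancer-class MTBP peak (y axis, %) by quintile of the authors' zone score (x axis). Right, median log2 ratio of deltaC to WT signal of those peaks, 1 added to both; the share goes from 10.7% to 69.7% and the median goes from -0.86 to -1.21, with the third quintile (-1.06) below the fourth (-1.01).

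Most of these enhancers shared their zone with a promoter peak. Of the 861 zones, 613 also held a promoter-class peak and contained 1390 of the enhancer peaks, and 248 held none and contained 426. Zones with both kinds had a median width of 81.1 kb and score of 1431, and zones with enhancer but no promoter peaks 54.8 kb and 742. Enhancer peaks beside a promoter peak in their zone had a median ratio of -1.16 (-1.54 and -0.82), and those with none -1.01 (-1.35 and -0.73). Their WT signal per base was close, 0.397 and 0.392, and their deltaC signal 0.18 and 0.204. In the 613 shared zones, the enhancer median was below the promoter median in 286 and above it in 327, with a median difference of 0.04 (quartiles -0.33 and 0.47). Of these 2 classes, the higher top score belonged to an enhancer peak in 348 zones and to a promoter peak in 252, with ties in 13. Other peaks were not part of that count. Zone kinds differ in score and width, so the part of the promoter peak in these differences was not tested.

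Within a zone the enhancers were spread out, with a smaller share near the edges than the length there. Of 1790 peaks centred in a zone, 640 (35.8%) lay in the outer 20% at either end, which makes up 40% of the length. Moving from the edges to the middle in 5 equal steps, the shares were 17.4%, 18.3%, 21.2%, 20.8% and 22.2%, and the median ratios -1.10, -1.07, -1.10, -1.12 and -1.16. Neighbouring enhancer peaks of a zone were 8.7 kb apart at the median (quartiles 3.39 and 23.9 kb, 955 gaps), and 35.3% of gaps were within 5 kb. Another MTBP peak of any class lay within 5 kb of 47.7% of the peaks, against 32.8% of enhancer peaks outside zones and 26.3% of all peaks. Peaks of the other classes went the same way, with 32% in zones and 19.6% outside for promoter-class peaks and 39% and 21.8% for other peaks. Neighbours in a zone differed in ratio by about as much as neighbours in different zones. The median absolute difference in log2 ratio was 0.48 for 337 neighbouring pairs under 5 kb apart, 0.48 for 338 pairs at 5 to 20 kb, 0.50 for 280 pairs farther apart in a zone and 0.49 for 838 neighbouring pairs in different zones. In the 225 zones with 3 or more, the range of the ratio within a zone had a median of 1.06. Every enhancer peak was below 0 in 211 of these zones, and every one was at least 2-fold lower in 42. Taken singly, 98.5% of the 1816 peaks were below 0 and 58.3% were at least 2-fold lower.

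The zone with most enhancers, chr1:8021541-8337538, held 19 over 218 kb, beside 5 promoter peaks, and contains ERRFI1, a feedback inhibitor of the EGF receptor, and SLC45A1, a sugar transporter gene. The scores of the 19 ran from 69 to 1115 (median 360), and their ratios from -2.02 to -0.47 (median -1.01), with 10 at least 2-fold lower. The highest-scoring peak of the 19 lay 95.9 kb from the zone's start and had 0.547 signal per base in WT and 0.201 in deltaC. The second zone, chr10:110302731-110501749, held 13 enhancer peaks with ratios from -2.19 to -0.60 and contains DUSP5, a phosphatase that inactivates ERK, and SMNDC1, a splicing factor gene. The third, chr22:30169223-30288711, held 12 with ratios from -1.50 to 0.02 and contains LIF and OSM, cytokines of the interleukin-6 family, with HORMAD2 and CASTOR1. The fifth, chr1:202004893-202188990, held 11 with ratios from -2.12 to -0.74, of which 10 were at least 2-fold lower, and contains ELF3, an ETS factor of epithelial cells.

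The fourth zone stood in a stretch without any protein-coding gene. At chr4:74624786-74695712, 70.9 kb wide, it held 11 MTBP peaks, and all 11 were of the enhancer class. The zone holds 8 H3K4me2 peaks, and the scores of the 11 ran from 95 to 255, around a median of 190. Their WT signal per base stayed in a narrow range, 0.255 to 0.431, while 8 had ratios between -1.33 and -0.75 and 3 neighbouring peaks at 37.2, 40.6 and 43.3 kb had ratios of 0.01, -0.21 and -0.35. The zone's own EdU score was 2670, above the median of 1221 for zones with an enhancer peak.

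**Figure D5:**
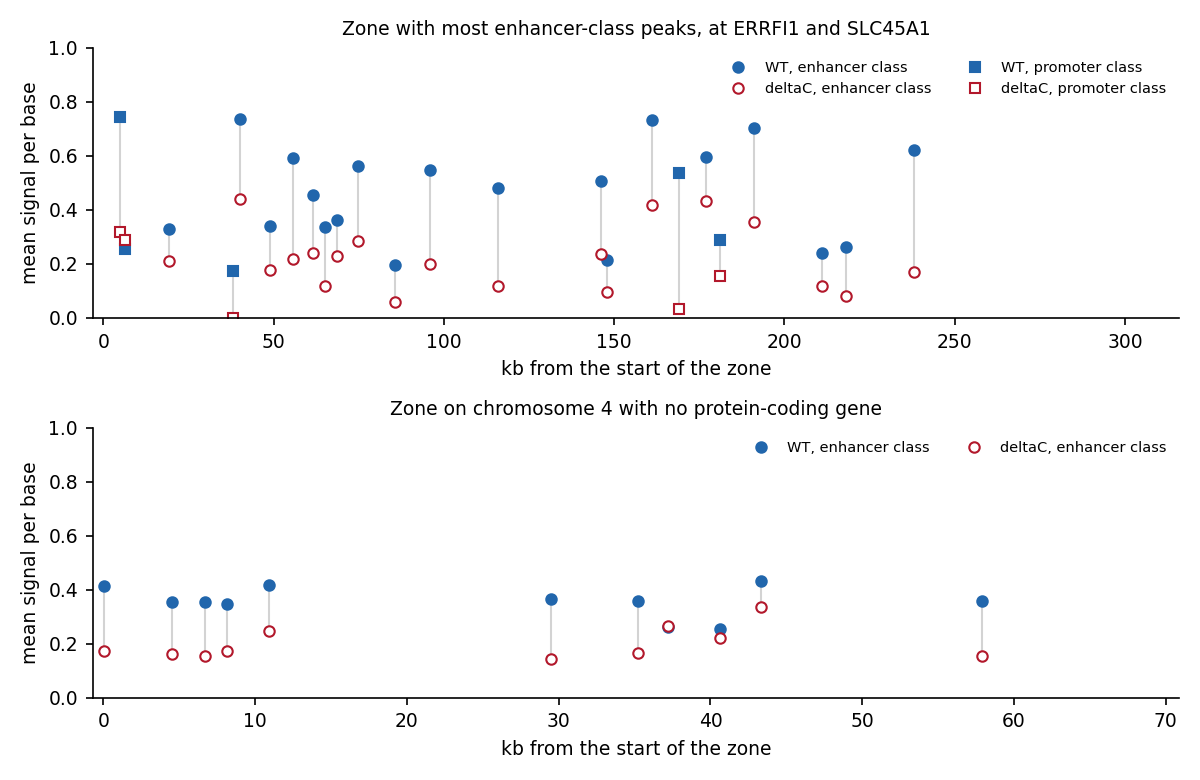
MTBP signal per base (y axis) in WT (filled) and deltaC (open) at each MTBP peak against kb from the start of the zone (x axis), for the zone with 19 enhancer-class peaks (circles; squares are promoter-class) and the chromosome 4 zone with 11. All 19 enhancer peaks of the upper zone were lower in deltaC, while the chromosome 4 peak at 37.2 kb was level (0.263 in WT, 0.266 in deltaC).

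Single enhancers differed widely in the ratio, though not those of highest score. The highest MTBP score, 2210, belonged to a peak at chr2:38461642-38463180 in an intron of a non-coding transcript, with a signal of 2109 in WT and 910 in deltaC (ratio -1.21). It was alone of its class among 12 MTBP peaks of its zone. The next were in STPG4 (chr2:47108332-47109291, score 1417, ratio -1.0), 19635 bp from DDAH1 (chr1:85297540-85298850, 1353, -0.98) and in WWC1, a Hippo pathway gene (chr5:168300744-168302931, 1320, -1.47). A peak 42354 bp from TGFA, an EGF receptor ligand, also scored 1320, with a ratio of -1.01, and a peak 16954 bp from the receptor kinase gene EPHA2 scored 1304, with -1.29. The other 4 of the 10 highest, in BCAR3 and nearest to B3GNT2, F3 (tissue factor) and LOC124903319, had ratios of -1.33, -1.25, -0.92 and -1.47. The ratios of the 10 thus ran from -1.47 to -0.92, inside the quartiles of all 1816. On chromosome 2 lay 4 of the 10, and on chromosome 1 another 4. These chromosomes hold 111 and 234 of the 1816.

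The lowest and highest ratios were named among the brighter peaks, the 908 at or above the median mean signal of both lines. A peak at chr16:2905102-2906469, 5462 bp from FLYWCH1, had a signal of 575 in WT and 87.1 in deltaC, a ratio of -2.71. A peak 14195 bp from METRNL had 752 and 121 (-2.63), and a peak in GSE1 had 740 and 123 (-2.58). A peak 937 bp from RBMS2 had 778 and 143 (-2.43). At the other end, a peak 1500 bp from ADM, the adrenomedullin gene, had 531 in WT and 606 in deltaC (0.19). A peak 47478 bp from FOXO3 had 318 and 332 (0.06), a peak in DLGAP1 339 and 352 (0.05), and a peak 4983 bp from HORMAD2 348 and 354 (0.02). In deltaC 15 peaks were listed at 0, with WT signals from 91.8 to 385 and a median score of 131, and 5 of the 15 lay on chromosome 17. Given the 1 added to both signals, these 15 count among the peaks at least 2-fold lower. With only peaks above 0 in both lines, the share was 58% and the median ratio -1.11. Another 15 peaks bore deltaC in the authors' peak name. They scored 59 to 175, were 531 bp wide at the median and had a median ratio of 0.49, from -0.11 to 1.20. A peak's name and its signal in that line come from the same libraries, so this ratio is a description.

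Peak size and score gave further extremes. The widest of these enhancers, chr2:218893562-218898630, was 5069 bp wide and overlapped WNT10A, a Wnt ligand gene, with a signal of 1778 in WT and 1013 in deltaC (-0.81). The others of the 5 widest were 4261 to 4903 bp. They were nearest to or in F3 (-1.07), CELSR2 (-0.79), RAD51B, a recombination gene (-0.32), and IRF1, an interferon response factor gene (-1.11). Per base, the signal of these 5 in WT lay between 0.225 and 0.436, below the upper quartile of all 1816 (0.515). The 5 lowest scores, 47 to 59, included a peak 6932 bp from GDF15 (99.5 in WT, 51.7 in deltaC) and a peak 128661 bp from DLX2 (212 and 104). Of the 5 nearest to a start site, at 2002 to 2009 bp by the authors' distance, the ratios ran from -1.75 in AKT1S1, a gene of mTOR signalling, to -0.51 in LYPD3.

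Almost all of these enhancers carried H3K4me2, a mark of promoters too, and no mark of these lists tells them apart. By annotation, 57 (3.14%) touched a RefSeq promoter window and 8 were placed by the authors at a promoter. An H3K4me2 peak overlapped 1794 of them (98.8%, exact binomial interval 98.2 to 99.2%), against 99.3% of enhancer peaks outside zones and 98.9% of all peaks. The fold enrichment of the H3K4me2 peak had a median of 23.8 (quartiles 16.8 and 31.2), against 24.8 outside zones, 23.7 over all MTBP peaks, 27.7 at promoter peaks in zones and 14.4 over all 62388 H3K4me2 peaks. Its width had a median of 2352 bp, against 2474 bp outside. The MTBP and H3K4me2 summits lay 190 bp apart at the median on both sides. In 148 H3K4me2 peaks there were 2 or more of the enhancers, 331 in all, and up to 6 under a single one. Across quintiles of MTBP score, from the lowest up, the median H3K4me2 fold went from 18.4 to 22.6, 24.7, 24.7 and 26.9. The WT signal per base went from 0.271 to 0.61, while the median ratio stayed between -1.14 and -1.05. The score may itself rest on WT signal, so the rise of that signal with score is a description. The 22 enhancers with no H3K4me2 peak had lower scores, 47 to 170, and a median ratio of -1.26, and 7 of them lay on chromosome 17. The highest-scoring of them, at chr17:83062437-83066552, was 4116 bp wide, with a signal of 1036 in WT and 193 in deltaC. The highest H3K4me2 fold, 104, was at a peak in GNG7, a G protein subunit gene (ratio -0.98). The next were 2 peaks under 1 H3K4me2 peak on chromosome 13 (fold 81.3, ratios -0.76 and -2.15), a peak in NR4A1, an immediate early nuclear receptor gene (80.1, -0.83), and a peak in SPINT1, a protease inhibitor gene (71.5, -1.81).

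Enhancers in zones were more often between genes, and nearer to a start site, than those outside, by description and not by test. Other peaks went the same way. The centre was in a protein-coding gene for 39.2% of them (exact binomial interval 37 to 41.5%), against 63.8% outside zones (62.2 to 65.5%) and 54.9% of all peaks. These intervals cover counting error only and take each peak as independent, although many share a zone. In the authors' annotation, 39.1% were intergenic and 26.2% intronic, against 22.4% and 45.9% outside zones. Among the same-class peaks in zones and outside, the median distance to a start site was 8454 bp (quartiles 4505 and 16532) and 15022 bp, and 3.03% and 12.2% were over 50 kb from one. The 5 farthest lay 180158 to 190748 bp from a start site, 4 of them under 1 H3K4me2 peak of 16232 bp on chromosome 14. Repeats annotated 19.4% of the peaks, with a median ratio of -1.07, led by Alu (4.68%) and MIR (3.74%). The lowest medians by annotation among those with over 50 peaks were at transcription termination sites, -1.37 for 66 peaks, and CpG islands, -1.26 for 118. Outside zones these annotations had medians of -0.96 for 42 and -0.96 for 184 enhancer peaks, and over all peaks -1.14 and -0.99.

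Gene lists of the tissue were counted by the presence of one of these enhancers in the gene or within 10 kb of its ends, which held for 5.43% of 19970 protein-coding genes. In the list of EGF receptor, AP-1 and feedback genes, 9 of 26 had such a peak, with a median ratio of -1.31 over 10 peaks. Counting enhancer-class peaks in or outside zones, 16 of the 26 had one, against 13.9% of all protein-coding genes. A peak 9467 bp from ETV4, an ETS factor gene downstream of ERK, had a signal of 287 in WT and 16.7 in deltaC, a ratio of -4.03. The peak in DUSP5 had 409 and 134 (-1.60), that near FOSL1, an AP-1 subunit, 547 and 227 (-1.26), and that near AREG, an EGF receptor ligand, 482 and 166 (-1.53). The peak near DUSP6, another ERK phosphatase, had 411 and 322 (-0.35), the highest ratio in this list. EREG, a further ligand, had 2 peaks with ratios of -1.54 and -1.03, and the peaks at ERBB2, a receptor of the family, and JUNB, an AP-1 subunit, had -0.92 and -0.91.

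Of the intestinal transcription factor genes, 5 of 20 had such a peak: ELF3, EHF, FOXA1, ID1 and TCF7L2, with a median ratio of -1.29 over 8 peaks. The higher-scoring of 2 peaks at ELF3 had a signal of 1100 in WT and 432 in deltaC (-1.35). EHF, another epithelial ETS factor, held 3 peaks with ratios from -1.24 to -0.54. TCF7L2, the Wnt-responsive factor of intestinal epithelium, had a peak of 3113 bp with 957 and 377 (-1.34), of which 42 bp lay in the zone. The peak near FOXA1, a pioneer factor, had 702 and 439 (-0.68). Of the intestinal surface and adhesion genes, 5 of 20 had a peak: KRT8 and KRT18, the simple epithelial keratins, the claudins CLDN4 and CLDN7, and CDH1, which encodes E-cadherin. KRT8 and KRT18 share peaks, the highest-scoring with 933 in WT and 417 in deltaC (-1.16). The CLDN4 peak had 668 and 217 (-1.62), the CLDN7 peak 215 and 60.3 (-1.82), and the higher-scoring CDH1 peak 890 and 553 (-0.69).

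The remaining lists had fewer. Among Wnt target genes 3 of 19 had such a peak. AXIN2, a feedback inhibitor of the pathway, had 4 peaks with ratios from -1.53 to -0.84, and RNF43, a ligase that removes Wnt receptors, had 1 with 376 in WT and 90.8 in deltaC (-2.04). Among YAP and TEAD target genes 2 of 15 had one: AMOTL2, a YAP inhibitor, with ratios of -1.27 and -0.92, and TEAD1 with -0.69 and -0.39. Of 32 replication initiation genes, 0 had an enhancer peak in a zone within 10 kb, and 2 (CDK2 and CDT1) had one within 50 kb, against 13.3% of all protein-coding genes at that distance. Among housekeeping genes 1 of 15 (YWHAZ) had one. Markers of cell types this line does not represent gave 0 of 12 for hepatocytes, 0 of 12 for neurons, 1 of 12 for blood (CD79A), 1 of 12 for muscle (CKM) and 2 of 12 for fibroblasts and endothelium (COL1A1 and VWF). The nearest gene need not be the target of an enhancer, and these counts were not tested.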

How the data were processed

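MTBP peaks, initiation zones and H3K4me2 peaks were taken from the lists that the authors deposited for hg38. Trim Galore, Bowtie2, MACS2 and HOMER were used, per the submitters' processing notes. Their versions, the pooling of replicates and the scaling between lines are not given in the sources used. The deposited MTBP list gives a score per peak and a signal for the WT and the deltaC line. The authors' zone score is the average score of EdU peaks in a zone. The deposited H3K4me2 list gives a fold enrichment and a score per peak. These are the authors' values, used to describe and rank peaks within a list. No list has library values or depth, so there was no replicate error and no test, and the untagged, IgG and G1 libraries were not used. Lists were joined by overlap of at least 1 bp. The ratio was log2((deltaC + 1)/(WT + 1)). Distance to a start site was as the authors deposited it. Genes and promoter windows came from RefSeq's GRCh38.p14 tables. The 10 peaks on Y were left out, and 0 columns of library values were unused. Regions were named by rank (score, ratio, H3K4me2 fold, distance, width, overlap, members per zone), genes by membership of 12 fixed lists, and sequences by score and ratio; some regions that the rule names are not reported here. The peaks and lists were chosen with earlier results of these data known. Python 3.11.15, pandas 2.3.3, numpy 2.4.6 and scipy 1.17.1 were used. Overlaps and ratios were tested on simulated data. Alternatives changed the overlap, zones, peaks, chromosomes, pseudocount and centring.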

Additional observations from a re-analysis of the deposited data

How the results depend on the processing

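No paired analysis was possible because no list holds library values. Of 135 values recomputed under alternatives, 112 stayed within the main value's binomial or order-statistic interval (for counts, within 1.5 times) and 23 moved. Keeping peaks at least 2 kb from a start site could change no value, as the nearest lay at 2002 bp. The values of that alternative are among the 112. None changed sign. The difference in median ratio between enhancer peaks in zones and outside, -0.20, stayed between -0.24 and -0.19 over 11 alternatives chosen after seeing the data. Keeping only peaks of at least the median MTBP score of all peaks left 1133, with a median score of 324, 60.8% at least 2-fold lower, 0% at least 2-fold higher, 100% with H3K4me2, a median H3K4me2 fold of 25.3, 26.3% of zones holding a peak and 42.1% of peaks in zones with 3 or more. Keeping only zones of at least the median score gave a median ratio of -1.15, 60.7% at least 2-fold lower, 52.6% of zones and 61.8% in zones with 3 or more. Keeping 1 peak per zone gave a median score of 300, an H3K4me2 fold of 24.5 and 0% at least 2-fold higher, and WT-named peaks alone also gave 0%. Centring the ratio on all peaks gave a median of -0.18, with 10.3% lower and 1.1% higher by 2-fold. Counting only H3K4me2 peaks at or above their median score left 84.7% with H3K4me2 at a median fold of 25.7. Zones widened by 10 kb gave 40.4% of zones, and the nearest gene end, in place of the authors' start site, a median of 5540 bp. The causes of these shifts were not tested.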
